A study of Homo sapiens with 2 samples.

Results

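The caspase and IAP genes described here are the 8 genes CASP2, CASP6, CASP8, CASP9, APAF1, XIAP, BIRC2 and DIABLO, picked by gene symbol out of 11619 genes with a value. All 8 have a value in both libraries. They fall into initiator caspases (CASP2, CASP8, CASP9), an executioner caspase (CASP6), the apoptosome scaffold (APAF1), inhibitors (XIAP, BIRC2) and an IAP antagonist (DIABLO). Other genes of the pathway were taken from a separate list and are given after these 8.

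Caspases are proteases that are made as inactive precursors and carry out apoptosis once they are cleaved or brought together. Initiator caspases are activated on large protein platforms: CASP8 at death receptors, CASP9 on the apoptosome that APAF1 forms when cytochrome c leaves the mitochondria, and CASP2 on the PIDDosome, which responds to DNA damage and extra centrosomes. Executioner caspases then cut the proteins of the cell, inhibitor of apoptosis proteins (IAPs) such as XIAP and cIAP1, the product of BIRC2, hold this cascade back, and DIABLO, released from mitochondria, binds IAPs and relieves their block.

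RNA came from NB4, a human cell line of acute promyelocytic leukemia (APL) that carries the PML/RARα fusion. The cells had received a lentiviral shRNA against the long non-coding RNA CRNDE (sh-CRNDE, knockdown cells) or a non-targeting shRNA (sh-Control, control cells), and were taken on day 3 after infection. Each group is 1 library, so the differences below were not replicated and no test of them was made. Which of the CRNDE shRNAs was used for sequencing is not given in the sources used here. Values are FPKM, fragments per kilobase of transcript relative to all mapped fragments. The change of a gene is log2(FPKM + 1) in sh-CRNDE less that in sh-Control, a scale that understates the change of low genes. A gene is said to have risen or fallen where this change is past 1.5-fold, 0.58 on the log2 scale.

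CRNDE, the targeted gene, was at 5.92 FPKM in control cells and 1.85 FPKM in knockdown cells, a change of -1.28. The FPKM values of all genes summed to 141217 in control cells and 170373 in knockdown cells, where 16.2% of the sum was MT-RNR2, a mitochondrial rRNA gene at 0 in control cells. Of 6 promyelocyte markers 5 were listed, ELANE being absent, and their summed level was 1404 FPKM in control cells and 814 FPKM in knockdown cells. Of 3 T cell markers 1 was listed, of 3 B cell markers 2, and of 3 erythroid markers 0. The summed T cell markers were at 0.991 FPKM in control cells and 1.16 FPKM in knockdown cells, and the summed B cell markers at 1.59 and 0.945 FPKM. The part that the lower promyelocyte markers have in the differences below was not tested.

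Of the 8 genes, CASP2 rose, no gene fell, and the changes of the other 7 genes were not past 1.5-fold. That is 12.5% of the 8 genes. Of all genes 17.2% were past the threshold, 8.38% higher and 8.83% lower, and of the 6866 genes whose mean FPKM lies in the range spanned by the 8 it was 16.6%. With a pseudocount of 1, the count for the 8 genes is thus no larger than the background and is not a result about them as a set. It depends on the setting. With a pseudocount of 0.1 or 0.01, and after rescaling the values to a fixed sum, it was 4 of 8. The shares of all genes were then 28.4%, 30% and 27.3%. CASP9, which could only be lower as listed, is among the 4. On the log2 scale, 4 of the genes were higher and 4 lower in knockdown cells, with a median change of 0.07 beside -0.01 for all genes. In RNA of a whole culture, fewer cells that express a gene and less of its RNA per cell cannot be told apart.

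CASP2 made up the whole increase of the initiator caspases, both inhibitor genes were higher by almost the same ratio and lay just under the threshold, and the executioner CASP6 and the scaffold APAF1 had slightly lower values. CASP9 was the lowest of the 8 genes in both libraries and lower still in knockdown cells, a direction fixed by its listing, as described below.

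**Figure D1:**
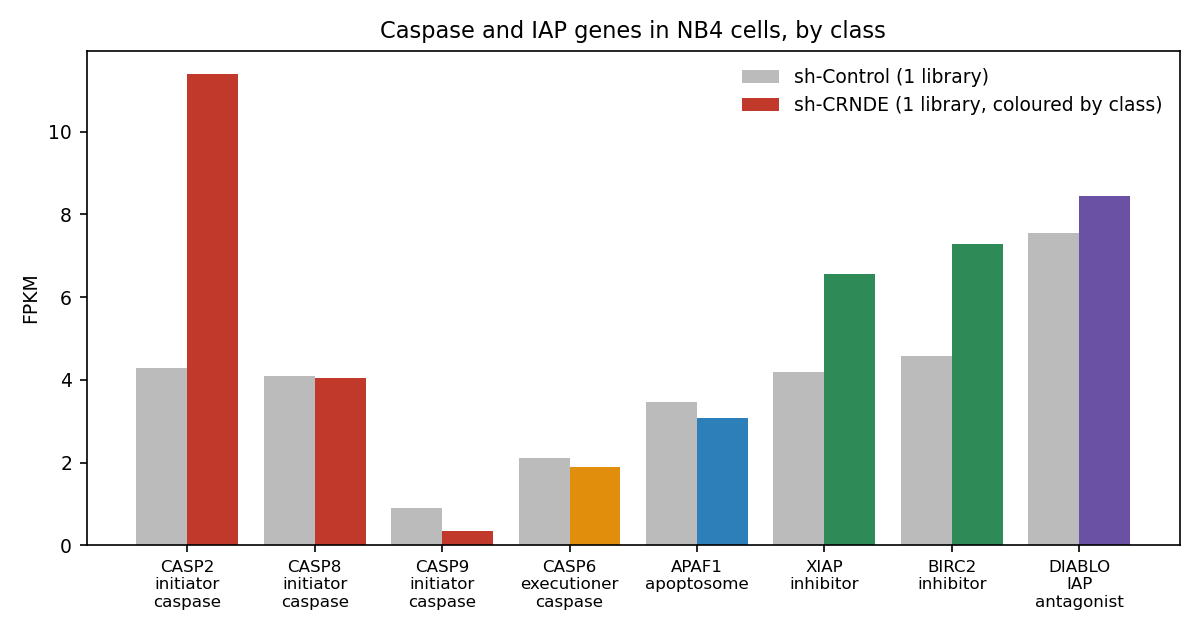
FPKM of the 8 caspase and IAP genes (y axis) in the sh-Control library (grey bars) and the sh-CRNDE library (bars coloured by class), with 1 library per group and so no error bars. CASP2 stands out, with a bar of 11.4 FPKM in sh-CRNDE beside 4.29 FPKM in sh-Control, while the bars of CASP8 are level.

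CASP2 (ENSG00000106144; chromosome 7, 143288215 to 143307696, plus strand, GRCh38) encodes the initiator caspase of the PIDDosome. It was at 4.29 FPKM in control cells and at 11.4 FPKM in knockdown cells. Its FPKM was thus 2.65-fold higher in knockdown cells, and its log2(FPKM + 1) was higher by 1.23. A higher change was found in 2.38% of all genes. CASP2 was also past 2-fold, as were 6.66% of all genes. In control cells it lay in the middle of the distribution, with 52.1% of genes at a lower FPKM, and in knockdown cells 77.1% of genes were lower. Under the scalings and pseudocounts tried, its change lay between 1.19 and 1.41. The gene has a long and a short protein form, and values per gene cannot tell these apart. The genes nearest to CASP2 in log2(FPKM + 1) over the 2 libraries were POLR2M (4.37 FPKM in control cells and 11.6 FPKM in knockdown cells), SKP1P1 (4.44 and 11.5 FPKM) and JAGN1 (4.08 and 11.2 FPKM), at Euclidean distances of 0.035, 0.044 and 0.060. With 2 libraries this likeness is one of level alone.

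The promoter of CASP2 is shown because CASP2 was the gene of the 8 that rose. The window runs from 250 bases before to 50 bases after the start of the canonical transcript (RefSeq, GRCh38.p14, chr7:143288101-143288400, plus strand). Capitals mark matches, on either strand, to 4 motifs searched: the GC box GGGCGG, the cyclic AMP response element TGACGTCA, the CCAAT box CCAAT and the E-box CACGTG.
CASP2: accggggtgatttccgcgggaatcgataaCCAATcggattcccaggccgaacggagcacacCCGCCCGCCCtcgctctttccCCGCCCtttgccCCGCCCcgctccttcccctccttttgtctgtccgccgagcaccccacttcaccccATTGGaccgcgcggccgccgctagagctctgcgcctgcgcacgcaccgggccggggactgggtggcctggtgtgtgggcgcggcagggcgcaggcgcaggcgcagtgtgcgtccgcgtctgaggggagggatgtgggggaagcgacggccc
The window held 4 GC boxes, 2 of which overlap, and 2 CCAAT boxes. A GC box was found in 45.0% and a CCAAT box in 34.6% of all 35116 promoter windows of this length. Neither a cyclic AMP response element nor an E-box was present in these letters.

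The increase of CASP2 was not seen in CASP8, and CASP9, as listed, could only be lower. CASP8 (ENSG00000064012; chromosome 2, 201233443 to 201361836, plus strand), the initiator caspase of death receptors, was at 4.09 FPKM in control cells and 4.04 FPKM in knockdown cells. Its change of -0.01 was the smallest of the 8 genes, and 49.3% of all genes had a lower change. The sign of so small a value turned with quantile normalization. Of the exonic bases of CASP8, 4.74% are shared with another annotated gene, which has no value in either library.

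CASP9 (ENSG00000132906; chromosome 1, 15490832 to 15526534, minus strand), the initiator caspase of the apoptosome, was at 0.898 FPKM in control cells and 0.357 FPKM in knockdown cells. The FPKM value was thus 2.52-fold lower in knockdown cells, yet the change on the log2(FPKM + 1) scale was -0.48 and not past 1.5-fold. A lower change was found in 12.0% of all genes. With a pseudocount of 0.1 in place of 1 the change was -1.13 and past the threshold. Every listed gene is above 0.5 FPKM in at least 1 library, and CASP9 meets this in control cells only. A gene listed with a value under this floor in knockdown cells can only be lower there. In knockdown cells 3.84% of genes had a lower FPKM, and the number of reads behind a value this low is not known.

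The CASP9 promoter is shown beside that of CASP2 because the FPKM of these initiator caspases differed in opposite directions (chr1:15524166-15524465, minus strand, GRCh38.p14, same window and same marks). The direction of CASP9 was fixed by its listing, and its change was not past 1.5-fold. The windows are therefore not read as those of genes with opposite responses.
CASP9: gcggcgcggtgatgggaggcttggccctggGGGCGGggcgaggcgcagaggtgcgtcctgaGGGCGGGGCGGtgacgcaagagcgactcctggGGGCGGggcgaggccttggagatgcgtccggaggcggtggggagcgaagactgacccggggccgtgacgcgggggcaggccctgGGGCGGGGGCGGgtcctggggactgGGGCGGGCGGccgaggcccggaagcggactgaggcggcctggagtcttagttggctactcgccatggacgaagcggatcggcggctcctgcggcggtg
This window held 8 GC boxes, some of them overlapping, and no match to the other 3 motifs. Its GC content was 76.0%, beside 71.3% in the CASP2 window and a median of 58.7% over all windows.

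Summed over the initiator caspases, the level was 9.28 FPKM in control cells and 15.8 FPKM in knockdown cells, a change of 0.71 on the log2 scale. Without CASP2, CASP8 and CASP9 summed to 4.99 FPKM in control cells and 4.40 FPKM in knockdown cells, a change of -0.15. Of this difference CASP8 gave -0.047 FPKM and CASP9 -0.541 FPKM. CASP9 is listed only through its value in control cells and so could only be lower in knockdown cells. No direction of the class without CASP2 is therefore read from this sum. CASP2 made up 46.2% of the summed initiator level in control cells and 72.1% in knockdown cells. The share of CASP8 was 44.1% in control cells and 25.6% in knockdown cells, and that of CASP9 was 9.68% and 2.26%. For each FPKM of CASP9 there were 4.78 FPKM of CASP2 in control cells and 31.9 FPKM in knockdown cells.

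**Figure D2:**
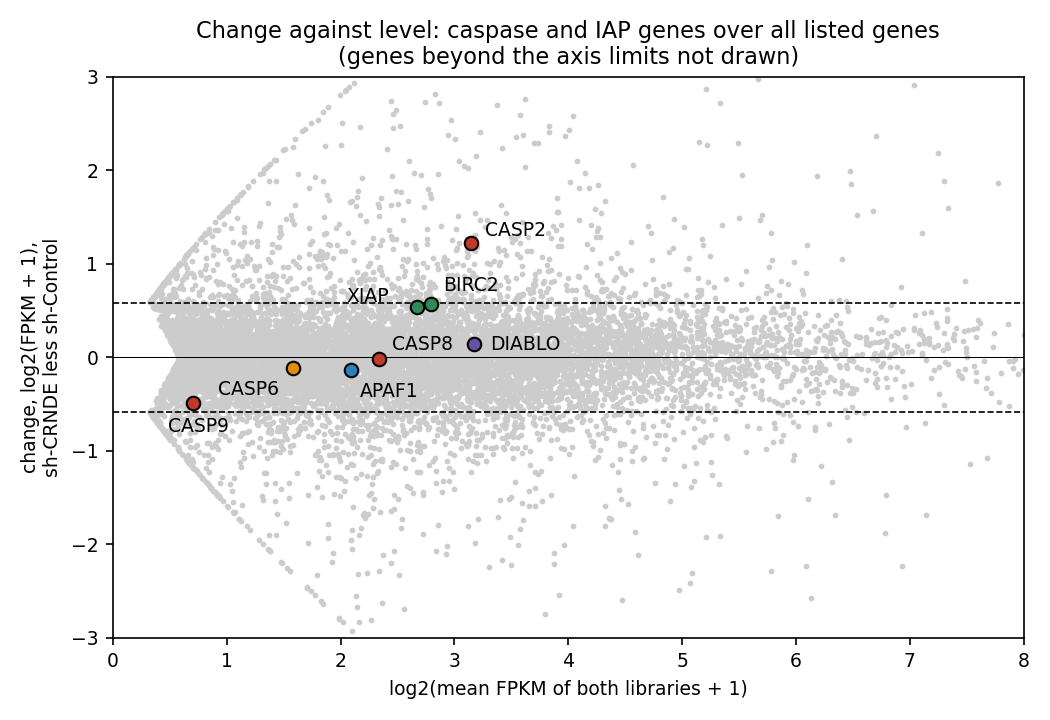
Change on the log2(FPKM + 1) scale (y axis) against log2 of the mean FPKM of both libraries + 1 (x axis) for all listed genes (grey) and the 8 caspase and IAP genes (coloured by class). Dashed lines mark 1.5-fold; CASP2 lies above the upper line, BIRC2 (0.57) and XIAP (0.54) just under it, and the other 5 genes between the lines.

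CASP6 (ENSG00000138794; chromosome 4, 109688622 to 109703583, minus strand), an executioner caspase that cuts nuclear lamins, was at 2.12 FPKM in control cells and 1.88 FPKM in knockdown cells. Its change was -0.11, and 38.2% of all genes had a lower one. Of its exonic bases, 5.04% are shared with MCUB on the opposite strand, which has no value in either library.

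APAF1 (ENSG00000120868; chromosome 12, 98645290 to 98735433, plus strand), the scaffold of the apoptosome, was at 3.47 FPKM in control cells and 3.07 FPKM in knockdown cells. Its change was -0.14, with 36.0% of all genes lower. APAF1 and CASP9, the partners in the apoptosome, both had lower values in knockdown cells, and neither was past 1.5-fold. CASP9 could only be lower as listed, so these values are not read as a joint fall. Their summed level was 4.37 FPKM in control cells and 3.43 FPKM in knockdown cells, a change of -0.28. Of the difference of -0.943 FPKM, CASP9 gave -0.541 FPKM, and the ratio that follows carries the same limit. For each FPKM of CASP9 there were 3.87 FPKM of APAF1 in control cells and 8.61 FPKM in knockdown cells.

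XIAP (ENSG00000101966; chromosome X, 123859712 to 123913972, plus strand) encodes an IAP that binds caspases directly, CASP9 among them. It was at 4.19 FPKM in control cells and 6.57 FPKM in knockdown cells. BIRC2 (ENSG00000110330; chromosome 11, 102347211 to 102378670, plus strand) encodes cIAP1, a ubiquitin ligase that acts at TNF receptors. It was at 4.57 FPKM in control cells and 7.29 FPKM in knockdown cells. Both genes were higher in knockdown cells by a similar ratio, 1.57 for XIAP and 1.59 for BIRC2, both above 1.5 as plain ratios.

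On the log2(FPKM + 1) scale the changes were 0.54 for XIAP and 0.57 for BIRC2, just under the threshold. A higher change was found in 9.49% of all genes for XIAP and in 8.63% for BIRC2. With a pseudocount of 0.1 they were 0.63 and 0.66 and past 1.5-fold. On that scale 4 of the 8 genes were past 1.5-fold (CASP2, CASP9, XIAP and BIRC2), beside 28.4% of all genes. Summed, the inhibitors were at 8.77 FPKM in control cells and 13.9 FPKM in knockdown cells, a change of 0.61. A pseudocount of 1 weighs less on a sum than on each gene, and neither inhibitor gene passed 1.5-fold by itself. BIRC2 was at 1.09 times the FPKM of XIAP in control cells and 1.11 times in knockdown cells.

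The canonical transcripts of XIAP and BIRC2 had the lowest GC content of the 8, 38.9% and 37.4%, and that of CASP9 the highest, 52.3%. Among genes that averaged 1 FPKM or more, the median change was 0.18 in the fifth of genes with the lowest GC content and -0.27 in the fifth with the highest. With the median of genes alike in GC content subtracted, XIAP was at 0.38, BIRC2 at 0.40, CASP9 at -0.42 and CASP2 at 1.19. The direction of these 4 genes was thus the same, with smaller values. CASP8, CASP6 and APAF1 became more negative, at -0.12, -0.22 and -0.25, and DIABLO was at 0.13.

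The promoters of XIAP (chrX:123859803-123860102, plus strand) and BIRC2 (chr11:102346964-102347263, plus strand) are set side by side because these inhibitor genes were higher by almost the same ratio. Window, build and marks are those given for CASP2.
XIAP: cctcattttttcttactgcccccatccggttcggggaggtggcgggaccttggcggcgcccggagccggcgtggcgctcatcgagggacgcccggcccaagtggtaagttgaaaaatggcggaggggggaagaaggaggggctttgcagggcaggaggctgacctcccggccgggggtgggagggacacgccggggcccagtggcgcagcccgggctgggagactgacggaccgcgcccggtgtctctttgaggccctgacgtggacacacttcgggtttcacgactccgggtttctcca
BIRC2: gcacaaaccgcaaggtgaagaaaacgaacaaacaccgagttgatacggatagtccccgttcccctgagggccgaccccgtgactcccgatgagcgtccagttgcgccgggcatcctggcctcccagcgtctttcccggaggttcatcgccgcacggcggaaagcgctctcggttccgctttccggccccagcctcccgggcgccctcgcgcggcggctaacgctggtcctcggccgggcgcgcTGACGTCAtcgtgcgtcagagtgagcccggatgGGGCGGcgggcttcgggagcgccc
In the XIAP window none of the 4 motifs was found. The BIRC2 window held 1 cyclic AMP response element, which begins 7 bases before the start, and 1 GC box. The cyclic AMP response element was present in 1.85% of all windows. These windows held no motif match in common, and a link between the motifs and the changes was not tested. XIAP and CASP8 have 3 promoter windows each, BIRC2, CASP2 and CASP9 have 2 each, and DIABLO has 4. Only the window at the canonical start was examined for each gene. Of the windows not printed, that of CASP6 held 3 GC boxes, those of APAF1 and DIABLO each held 1 GC box and 1 CCAAT box, and that of CASP8 none of the motifs. An E-box, present in 7.26% of all windows, was found in none of the 8 windows examined.

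DIABLO (ENSG00000184047; chromosome 12, 122207663 to 122227456, minus strand), the IAP antagonist, was the highest of the 8 genes in control cells, at 7.54 FPKM, and at 8.45 FPKM in knockdown cells. Its change was 0.15, and 33.4% of all genes had a higher one. The summed inhibitors were at 1.16 times the FPKM of DIABLO in control cells and at 1.64 times in knockdown cells. Of the exonic bases of DIABLO, 31.5% and 16.4% are shared with 2 other annotated genes on the same strand and 13.9% with B3GNT4 on the opposite strand. Shares for APAF1 and CASP9 are 9.67% (with ANKS1B) and 1.92% (with CELA2B), both on the opposite strand. None of the overlapping genes has a value in either library, and counting by strand is not stated, so reads of overlapping genes cannot be told apart. A gene without a value may lie under the floor of 0.5 FPKM or be missing from the annotation the authors used. CASP2, XIAP and BIRC2 share no exonic bases with another annotated gene.

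FPKM is scaled to transcript length, so the levels of the genes can be set in order. In control cells the order from high to low was DIABLO, BIRC2, CASP2, XIAP, CASP8, APAF1, CASP6 and CASP9. In knockdown cells CASP2 moved from rank 3 to rank 1, and the other 7 genes kept their order among themselves. The highest gene was at 8.40 times the FPKM of the lowest in control cells and at 31.9 times in knockdown cells. The lowest was CASP9 in both, which as listed could only be lower in knockdown cells. The wider span is therefore not read as a result. In control cells BIRC2, CASP2, XIAP and CASP8 lay within 4.09 to 4.57 FPKM. Without replicates the spread is unknown, so the order of such close neighbours is not established.

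**Figure D3:**
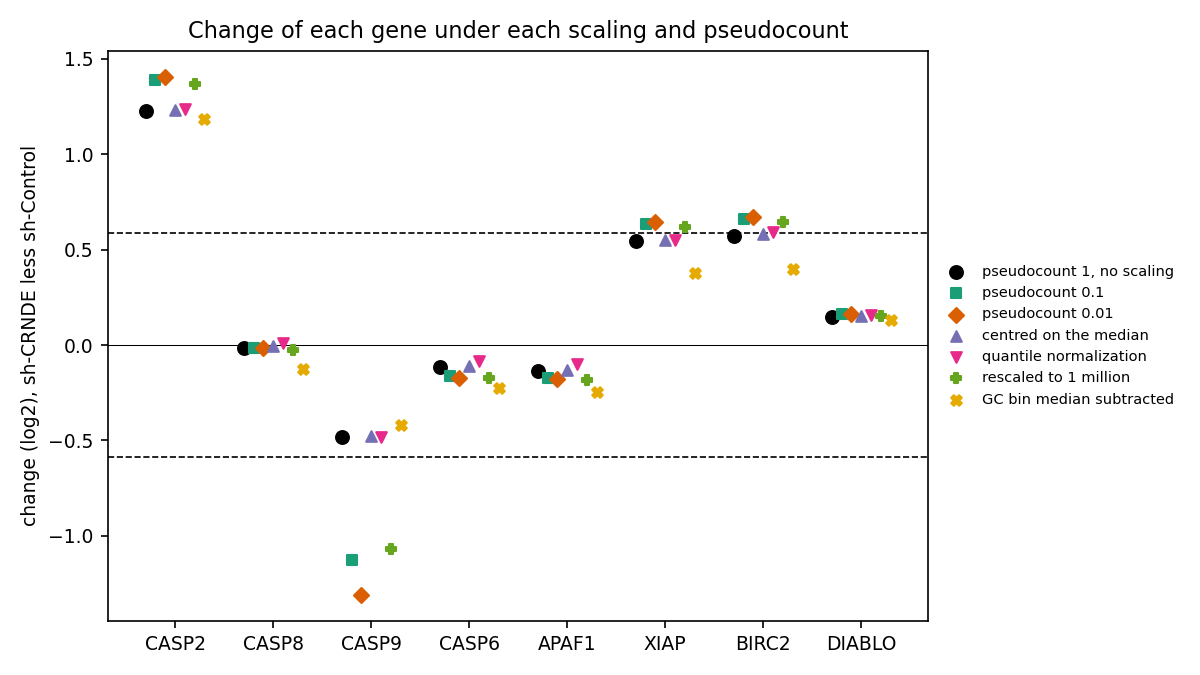
Change of each of the 8 genes, sh-CRNDE less sh-Control on the log2 scale (y axis), under the reported setting (black circles) and 6 other scalings or pseudocounts (coloured marks); dashed lines mark 1.5-fold. CASP2 is above the upper line under each of them, between 1.19 and 1.41, while XIAP and BIRC2 lie on either side of the line and CASP9 runs from -0.42 to -1.31.

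The list of other genes of the caspase pathway held 29 genes, 22 of which had a value. Of these, 1 rose and 2 fell, which is 13.6%, beside 17.2% of all genes. Irrespective of size, 10 were higher and 12 lower in knockdown cells, and the median change was -0.05. CASP10, the initiator caspase closest to CASP8, was at 0.708 FPKM in control cells and 0.835 FPKM in knockdown cells, a change of 0.10.

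Around the initiator caspases, neither partner of CASP2 on the list was past 1.5-fold on the log2(FPKM + 1) scale. PIDD1, the platform protein of the PIDDosome, was at 1.79 FPKM in control cells and 1.85 FPKM in knockdown cells, and CRADD, which links it to CASP2, at 0.973 and 0.390 FPKM, a change of -0.51. As a plain ratio CRADD was 2.49-fold lower in knockdown cells. Like CASP9, CRADD is listed only through its value in control cells, and so could only be lower in knockdown cells. Of the 9 genes of death receptors and their complex, 1 rose, 1 fell, and 7 were lower and 2 higher whatever the size of the change. Those past 1.5-fold make up 22.2% of the 9 genes, beside 17.2% of all genes, of which 50.8% were lower, and with 9 genes nothing is read from these counts. TNFRSF10A, a receptor for TRAIL, rose from 2.60 to 5.12 FPKM, a change of 0.77. FADD, the adaptor that brings CASP8 to death receptors, fell from 6.05 to 2.80 FPKM, a change of -0.89. There were thus 1.48 FPKM of FADD for each FPKM of CASP8 in control cells and 0.693 FPKM in knockdown cells. CFLAR, the inhibitor of CASP8 in that complex, was at 2.09 FPKM in control cells and 1.31 FPKM in knockdown cells, a change of -0.42. The plain ratio of CFLAR was past 1.5, at 1.60-fold lower in knockdown cells.

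Of the genes around the apoptosome and the inhibitors, none passed the threshold. CYCS, which encodes the cytochrome c that APAF1 binds, was at 85.6 FPKM in control cells and 99.7 FPKM in knockdown cells. HTRA2, a further mitochondrial antagonist of IAPs, was at 9.90 and 8.09 FPKM. Of the 6 other IAP genes 3 had a value, and their changes were 0.22 for BIRC5, -0.23 for BIRC6 and -0.08 for NAIP, so the higher levels of XIAP and BIRC2 were not seen in all IAP genes. NAIP has near-identical copies in the genome and its value is uncertain. Of the listed genes of nuclear breakdown, DFFB, the nuclease that cuts DNA in apoptosis, fell from 2.26 to 0.870 FPKM, a change of -0.80. DFFA, its inhibitor, was at 8.66 FPKM in control cells and 11.5 FPKM in knockdown cells, and PARP1 at 63.1 and 64.6 FPKM.

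**Figure D4:**
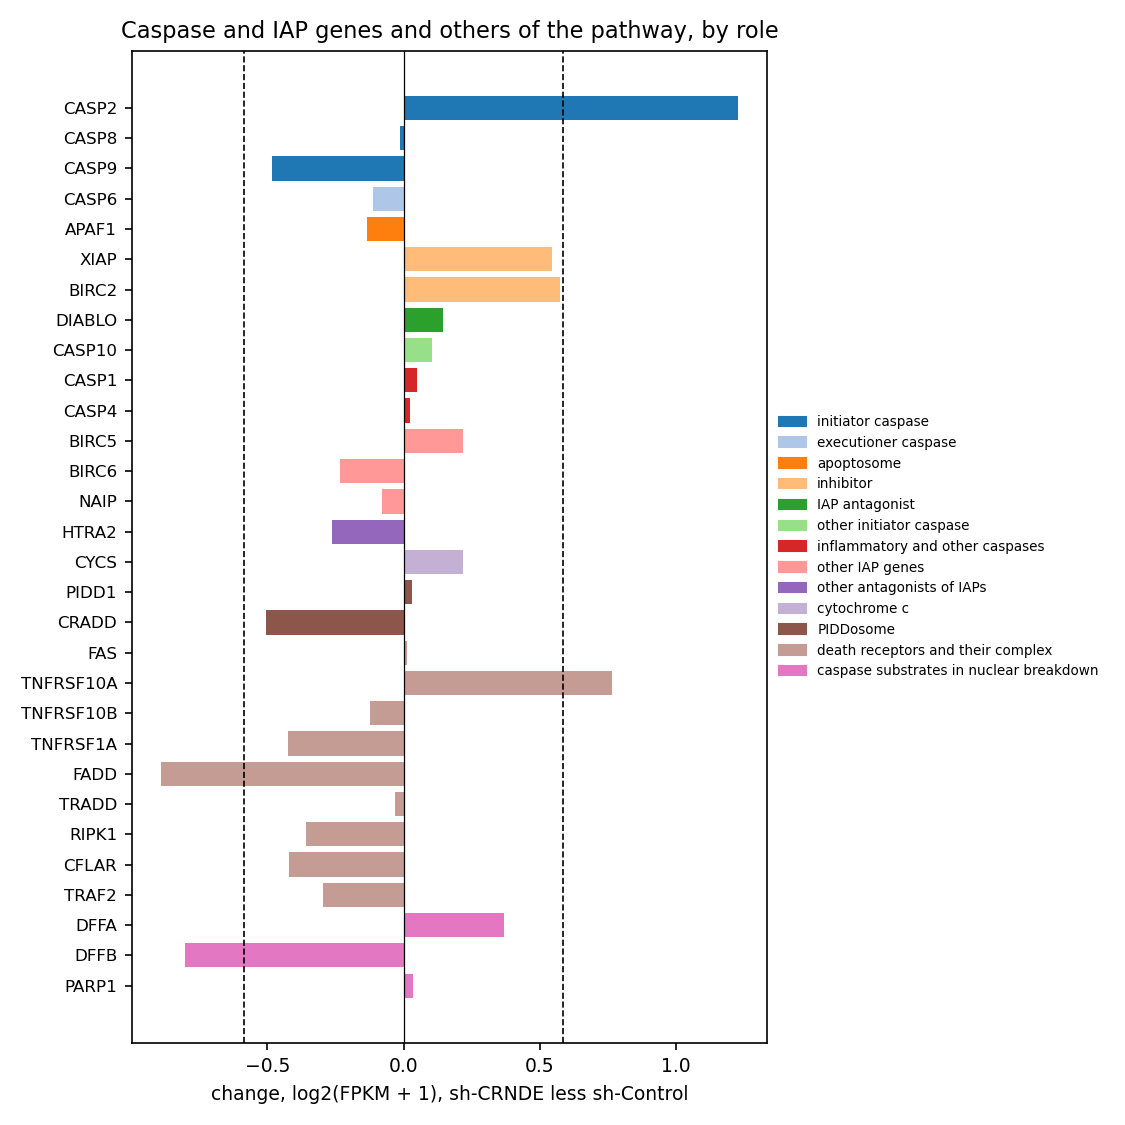
Change on the log2(FPKM + 1) scale, sh-CRNDE less sh-Control (x axis), of the 8 caspase and IAP genes and of the 22 other pathway genes with a value (y axis), coloured by role; dashed lines mark 1.5-fold. CASP2 and TNFRSF10A pass the upper line and FADD and DFFB the lower one.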

How the data were processed

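RNA was prepared for sequencing with TruSeq reagents and read on a MiSeq instrument. The submitters' processing notes name fastp 0.20.0, HISAT2 2.0.4, StringTie 1.2.3 and GRCh38. The authors deposited FPKM values per gene for 1 sh-CRNDE and 1 sh-Control library, and list only genes above 0.5 FPKM in at least 1 of them. The annotation release they used is not given in the sources used here. FPKM values keep no read counts, so the depth is unknown and no counting interval could be given.

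Genes were joined by Ensembl identifier. Changes were computed from log2(FPKM + 1), and 1.5-fold, which the study uses, was the threshold. With 1 library per group no test was run. Coordinates, exonic overlaps and GC content come from GENCODE release 44 (GRCh38), in which 11508 of the 11619 identifiers were found. Promoter sequences come from RefSeq (GRCh38.p14), and a window was found at the canonical start of each of the 8 genes. The 8 genes and the pathway and marker lists were chosen with earlier results of these data known. Named genes are CRNDE, the 8 genes, list genes past 1.5-fold and the 3 genes nearest to each of the 8 that passed it. Other list genes (CASP10, PIDD1, CRADD, CFLAR, CYCS, HTRA2, BIRC5, BIRC6, NAIP, DFFA, PARP1), MT-RNR2 and the overlapping genes were named after their values were seen. A further 2 genes were taken out of the pathway list and its counts and are not reported here.

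Alternatives were a pseudocount of 0.1 or 0.01, centring, quantile normalization, rescaling to a fixed sum, subtraction of the median change in 20 bins of GC content, a threshold of 2-fold and filters on low values. The sum of the initiator caspases without CASP2 was added after seeing the data. The computations were tested on simulated data and done in Python 3.11.15 with numpy 2.4.6, pandas 2.3.3 and matplotlib 3.10.9.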

Additional observations from a re-analysis of the deposited data

How the results depend on the processing

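CASP2 was past 1.5-fold and higher in sh-CRNDE under all 9 alternatives, and APAF1, CASP6, CASP8 and DIABLO were past the threshold under none. BIRC2 passed it with a pseudocount of 0.1 (0.66) or 0.01 (0.67), after quantile normalization (0.59) and after rescaling to a fixed sum without mitochondrial, ribosomal and small RNA genes (0.64). XIAP passed it with these pseudocounts (0.63 and 0.65) and after that rescaling (0.62), and so did CASP9 (-1.13, -1.31 and -1.07). The rescaling multiplied the values by 7.05 in sh-CRNDE and 7.11 in sh-Control, so that a pseudocount of 1 weighed less. Of the 8 genes, 4 were past 1.5-fold with either smaller pseudocount and after rescaling, 2 after quantile normalization, and 1 under each of the other alternatives. The shares of all genes were 28.4% with a pseudocount of 0.1, 30% with 0.01, 27.3% after rescaling and 17% after quantile normalization. Under the other alternatives they lay between 6.66% and 17.1%. A filter at a mean of 1 FPKM removed CASP9. Over all genes the count of 2000 was 3301 with a pseudocount of 0.1, 3481 with 0.01, 3133 after rescaling and 774 at 2-fold. The count of 3 of 22 pathway genes was 5 with either smaller pseudocount and after rescaling, to be read beside the same shares of all genes. It was 0 at 2-fold, where TNFRSF10A (0.77), FADD (-0.89) and DFFB (-0.80) fell short. The summed initiator caspases had a change of -0.15 without CASP2, an alternative chosen after seeing the data. That change rests largely on CASP9, which could only be lower as listed. No paired analysis was possible because each group has 1 library, and no library could be left out. The depth of the libraries limits the low values most, CASP9 among them, and could not be assessed from FPKM.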
